A study of Mus musculus with 4 samples.

Results

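The annexins are a family of proteins that bind acidic phospholipids when calcium rises, and the report concerns 8 of them in mouse liver: Anxa1, Anxa2, Anxa3, Anxa4, Anxa5, Anxa6, Anxa7 and Anxa11. They were chosen by name, as the probes of the array that carry one of these gene names and are not controls. These came to 14 of 41174 probes, and each of the 8 genes was among the 18041 genes tested. The study set livers of mice treated with an antisense oligonucleotide (ASO) against Plin2, which encodes a coat protein of lipid droplets, against livers of mice treated with a scrambled control oligonucleotide. The mice of both groups were C57BL/6 males fed a high-fat diet, and each had 25 mg/kg of oligonucleotide injected into the abdomen on 2 occasions a week for 4 weeks; their age is not given in the sources used here. Each of 4 arrays held 1 liver labelled Plin2-ASO in the green dye (mice 6, 7, 9 and 10 on arrays 1 to 4) and 1 control liver in the red dye (mice 1, 2, 4 and 5). Each array was thus 1 pair of mice. The dyes were never swapped, so treatment and dye bias of a probe cannot be told apart.

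Every annexin has a conserved core of repeated domains that hold calcium against the membrane, and an amino-terminal tail that differs between members and binds their partners, many of them small S100 proteins. Through these contacts annexins organise membrane patches, help to seal torn membranes, and take part in vesicle traffic. Hepatocytes express several members, while others are known mainly from macrophages, fibroblasts, endothelium or bile duct epithelium, so a whole-liver signal adds up many cell types. In such a sample, fewer cells of a type and less RNA per cell cannot be told apart.

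The targeted gene did not read lower after the antisense treatment. The log2 ratios of Plin2-ASO over control for Plin2 were 0.24, 0.15, 0.83 and 0.36 on arrays 1 to 4, with a mean of 0.40 ± 0.15 (SE, n = 4; adjusted p = 0.156 by limma). The place where the oligonucleotide binds relative to the probe is not given in the sources used here. Directions follow the dye labels throughout, and would all be mirrored if dyes or labels had been exchanged. Array 3 stood apart: 7.61% of its spots were marked as outliers by the scanning software, against 1.5% to 3.83% on the other arrays, and across genes, which are not independent replicates, its mean correlation with the rest was 0.33, where arrays 1, 2 and 4 had 0.66, 0.64 and 0.51. Between 59.9% and 68.3% of probes were well above background in the livers labelled Plin2-ASO, and between 64.4% and 70.1% in the control livers. All 8 hepatocyte markers (Alb, Ttr, Apoa1, Hnf4a, Cps1, Ass1, Tat and Fgb) were above background on every array in both groups.

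The probes of the annexins that fell, or came nearest to the threshold, are shown by their opening 30 of 60 bases, because what was measured is the stretch of transcript they match. They are given 5′ to 3′ from the array files, in mouse build mm7, and no base is singled out.
Anxa2, probe used, chr9:69521491-69521550, plus strand: gaagtggacatgctgaaaatcagatctgaa
Anxa2, other probe, chr9:69514817-69515591, plus strand: agagatcaacagagtgtacaaggaaatgta
Anxa1, chr19:20074249-20075762, minus strand: tattttaccagaagaagtatggaatctctc
Anxa5, chr3:36259980-36260039, minus strand: ccttctgatgttctgtctacagtaggtagt
Anxa3, chr5:96059115-96059174, plus strand: ctagaattaaagacctactaatgattttct
The Anxa1 probe and the other Anxa2 probe cover 1514 and 775 bases of the genome with 60 bases of sequence, so each is interrupted in the genome. Exons and UTRs were not looked up, as no mm7 annotation was used. Over 84 pairs of probes from different annexins, the longest run of bases shared was 9, between Anxa2 and Anxa7.

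Of the 8 annexins, 3 fell in the livers labelled Plin2-ASO (Anxa2, Anxa1 and Anxa5) and 0 rose, at an adjusted p under 0.05 by limma with Benjamini-Hochberg adjustment over all genes. Over all genes tested 9.74% changed, of which the part that fell was 6.07% of genes and the part that rose 3.67%. At an unadjusted p under 0.05, 5 annexins were lower and 0 higher, where 26.9% of all genes passed, 15.7% lower and 11.3% higher. The median log2 ratio of the 8 was -0.75, against -0.03 over all genes, and on arrays 1 to 4 it was -0.96, -0.85, -0.08 and -0.53. Anxa3 and Anxa4 were lower on average without passing, and Anxa6, Anxa7 and Anxa11 lay near 0 or above it. Without array 1 the number of annexins that fell was 1, where 1.14% of all genes fell. Without array 3 it was 5, with 1 more that rose, where 20.3% of all genes fell and 12.4% rose.

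**Figure D1:**
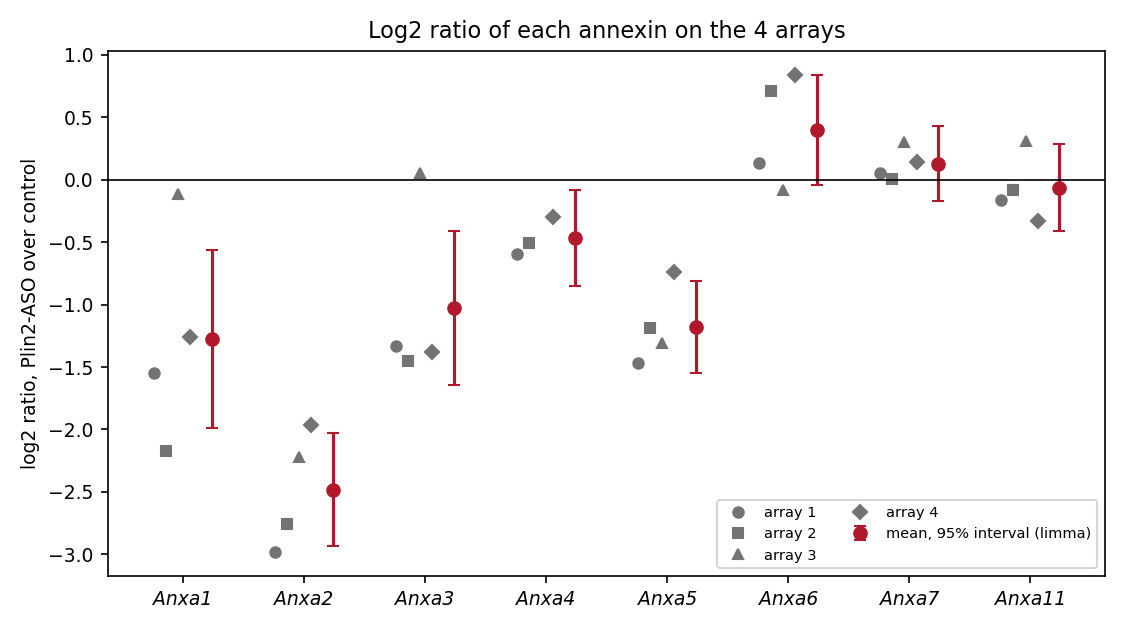
Log2 ratio (Plin2-ASO over control, vertical axis) of the probe used for each of the 8 annexins; grey symbols are arrays 1 to 4 and red points the mean with its 95% interval from limma. Anxa2 lies between -2.98 and -1.97 on all arrays, and the array 3 points of Anxa1 (-0.11) and Anxa3 (0.06) sit apart from the other arrays.

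Anxa2 showed the lowest ratio of the family on each of the 4 arrays. Its protein pairs with S100a10 at the plasma membrane and there binds plasminogen and its activator. The normalized log2 signal of its brighter probe was 9.39, 9.63, 9.87 and 10.27 in livers 6, 7, 9 and 10 labelled Plin2-ASO, against 12.37, 12.39, 12.09 and 12.24 in control livers 1, 2, 4 and 5. The highest liver labelled Plin2-ASO was below the lowest control liver. With this probe the control livers lay closer together (SD 0.14) than the livers labelled Plin2-ASO (SD 0.37). Anxa2 fell by 2.48 ± 0.19 on the log2 scale (SE, n = 4), a level 5.59-fold lower, with an adjusted p of 0.00148 by limma. Its mean ratio had rank 25 from the lowest among the 18041 genes. The other probe of Anxa2, which lies upstream in the gene, read 8.97, 8.73, 8.99 and 8.87 in livers 6, 7, 9 and 10 labelled Plin2-ASO, against 11.06, 10.87, 10.72 and 10.65 in control livers 1, 2, 4 and 5. Tested on its own it fell by 1.94 ± 0.14 (SE, n = 4; 3.83-fold lower; adjusted p = 0.00112 by limma over 25843 probes). Both probes separated the groups, and the probe used gave the larger difference on all 4 arrays. The order of the spreads was reversed with the other probe, with an SD of 0.18 in the control livers and 0.12 in the livers labelled Plin2-ASO. The call of Anxa2 held in each of 19 alternative analyses, with mean log2 ratios of -2.73 to -2.21 and adjusted p up to 0.0236.

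Anxa1 is secreted by myeloid and epithelial cells, is induced by glucocorticoids, and acts on formyl peptide receptors to limit the influx of neutrophils. Its log2 signal was 8.57, 8.81, 9.51 and 8.87 in livers 6, 7, 9 and 10 labelled Plin2-ASO, against 10.12, 10.98, 9.62 and 10.13 in control livers 1, 2, 4 and 5. The groups did not overlap, but on array 3 the gap between the livers was narrow, with a ratio of -0.11 against -2.17 to -1.26 on the other arrays. Anxa1 fell by 1.27 ± 0.30 on the log2 scale (SE, n = 4; 2.42-fold lower; adjusted p = 0.0436 by limma). This call rests on each of arrays 1, 2 and 4: leaving them out in turn gave adjusted p of 0.196, 0.175 and 0.109, and without array 3 the mean was -1.66 (adjusted p = 0.000554). It also ended in 4 other alternative analyses, among them the authors' series table (adjusted p = 0.0525) and no filter on dim probes (adjusted p = 0.0686).

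Anxa5 binds phosphatidylserine exposed on dying cells and shields it from clotting factors. Its log2 signal was 12.01, 12.66, 12.24 and 12.75 in livers 6, 7, 9 and 10 labelled Plin2-ASO, against 13.48, 13.85, 13.55 and 13.49 in control livers 1, 2, 4 and 5. Every liver labelled Plin2-ASO was below every control liver, and array 3 was no exception here. Anxa5 fell by 1.18 ± 0.16 on the log2 scale (SE, n = 4; 2.26-fold lower; adjusted p = 0.00678 by limma), and without array 1 the adjusted p was 0.0578. Of the 7 annexins measured on all arrays, Anxa1, Anxa2 and Anxa5 were the 3 whose groups did not overlap, all with the livers labelled Plin2-ASO below; over all genes measured on 4 arrays 10.7% were separated in that direction and 5.9% in the other.

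**Figure D2:**
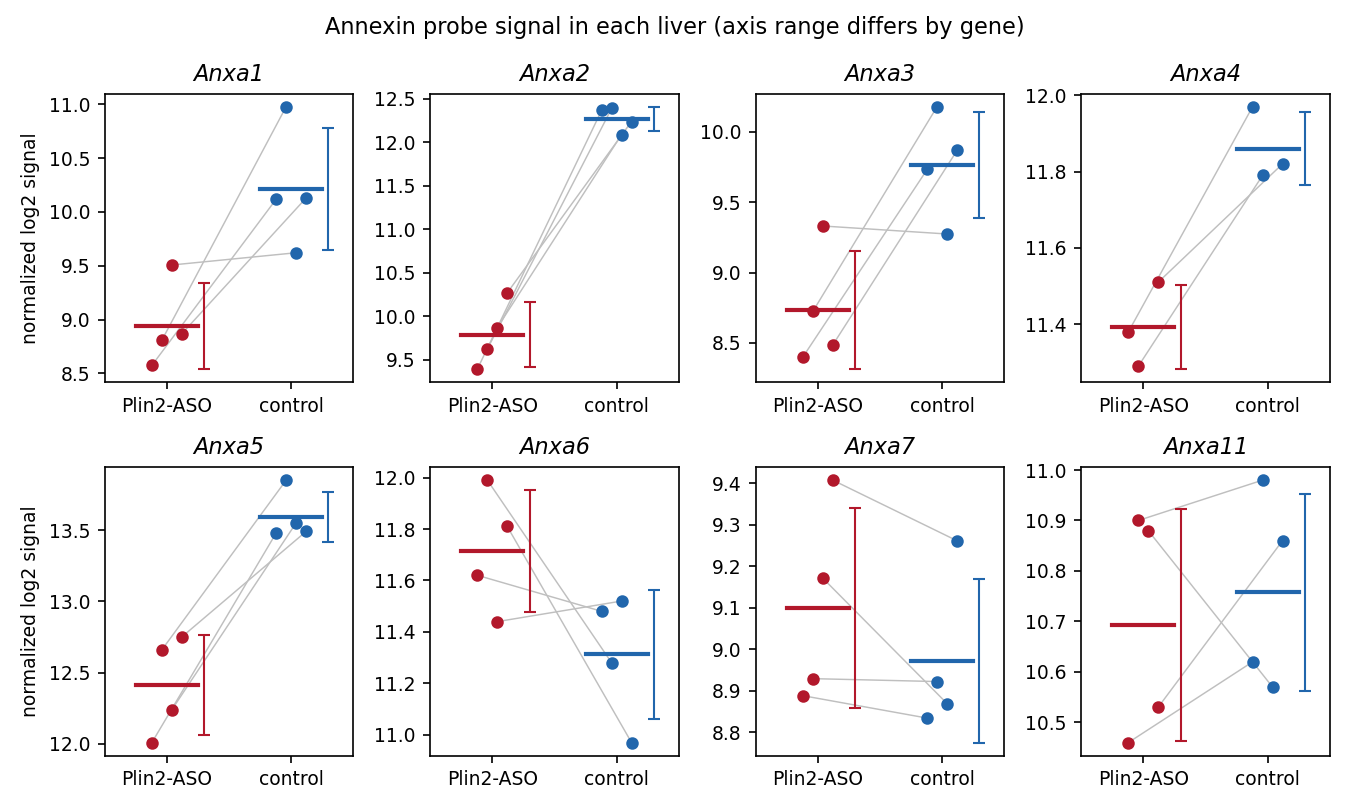
Normalized log2 signal of the probe used for each annexin, in the 4 livers labelled Plin2-ASO (red, left) and the 4 control livers (blue, right) of each panel; bars are means, whiskers 1 SD, and grey lines join the livers of 1 array. Anxa1, Anxa2 and Anxa5 separate the groups, Anxa4 does so over the 3 arrays it has, and the other 4 genes overlap.

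Anxa3 binds membranes in a calcium-dependent way and is expressed in neutrophils and several epithelia. Its log2 signal was 8.40, 8.72, 9.33 and 8.48 in livers 6, 7, 9 and 10 labelled Plin2-ASO, against 9.73, 10.18, 9.27 and 9.87 in control livers 1, 2, 4 and 5. The groups overlapped through the livers of array 3, where the ratio was 0.06, while arrays 1, 2 and 4 had -1.33, -1.46 and -1.38. The mean log2 ratio was -1.03 ± 0.26 (SE, n = 4; 95% interval -1.65 to -0.41; adjusted p = 0.0534 by limma). Without array 3 the mean was -1.39 and Anxa3 fell (adjusted p = 0.000208). A second Anxa3 probe was too dim to be kept, well above background in 0 of the 8 livers.

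Anxa4 is an epithelial annexin that is abundant near the apical membrane of bile duct cells. On arrays 1, 2 and 4 its brightest probe read 11.38, 11.29 and 11.51 in livers 6, 7 and 10 labelled Plin2-ASO, against 11.97, 11.79 and 11.82 in control livers 1, 2 and 5; its spot on array 3 was an outlier and was left out. The mean log2 ratio was -0.47 ± 0.16 (SE, n = 3; adjusted p = 0.124 by limma). A second probe of Anxa4, measured on all arrays, read 10.45, 10.47, 10.51 and 10.41 in livers 6, 7, 9 and 10 labelled Plin2-ASO, against 11.12, 10.84, 10.85 and 10.80 in control livers 1, 2, 4 and 5. Its groups did not overlap, and its mean of -0.44 ± 0.13 (SE, n = 4; adjusted p = 0.0775 by limma over all probes) was close to that of the probe used. The lower level was thus small, seen with both probes, and past the threshold in 2 of 18 alternative analyses, one of them leaving out array 3 (adjusted p = 0.0214). The remaining Anxa4 probe was above background in 1 liver labelled Plin2-ASO and 0 control livers.

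Anxa6 carries a doubled core and works on late endosomes and in cholesterol transport. Its log2 signal was 11.62, 11.99, 11.44 and 11.81 in livers 6, 7, 9 and 10 labelled Plin2-ASO, against 11.48, 11.28, 11.52 and 10.97 in control livers 1, 2, 4 and 5. The groups overlapped, and 3 of 4 arrays had the higher level in the liver labelled Plin2-ASO. The mean log2 ratio was 0.40 ± 0.19 (SE, n = 4; 95% interval -0.04 to 0.84; adjusted p = 0.222 by limma), and without array 3 it was 0.56 (adjusted p = 0.0276). A second Anxa6 probe was dim, well above background in 2 of 4 livers labelled Plin2-ASO and in 4 of 4 control livers, so its ratios bear little weight. It had a mean of -0.22 ± 0.15 (SE, n = 4; adjusted p = 0.372 by limma over all probes). It did pass the filter, and averaging the kept Anxa6 probes gave a mean of 0.09 (adjusted p = 0.754 by limma).

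Anxa7 and Anxa11 share a long tail rich in glycine, tyrosine and proline; Anxa7 promotes the fusion of membranes, and Anxa11 binds S100a6 and ties RNA granules to lysosomes. Anxa7 read 8.89, 8.93, 9.17 and 9.41 in livers 6, 7, 9 and 10 labelled Plin2-ASO, against 8.83, 8.92, 8.87 and 9.26 in control livers 1, 2, 4 and 5. Its ratios were small and positive on all 4 arrays, with a mean of 0.13 ± 0.13 (SE, n = 4; 95% interval -0.17 to 0.43; adjusted p = 0.568 by limma). These values come from the dimmer of 2 Anxa7 probes, because the brighter one was an outlier on 3 arrays; on array 2 it read 0.69. Anxa11 read 10.46, 10.90, 10.88 and 10.53 in livers 6, 7, 9 and 10 labelled Plin2-ASO, against 10.62, 10.98, 10.57 and 10.86 in control livers 1, 2, 4 and 5. The groups overlapped throughout, and the mean log2 ratio was -0.06 ± 0.15 (SE, n = 4; 95% interval -0.41 to 0.29; adjusted p = 0.821 by limma), with the sign turned by median centring (0.01) and without array 4 (0.02). For both genes the intervals leave out a change of the size seen for Anxa2.

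**Figure D3:**
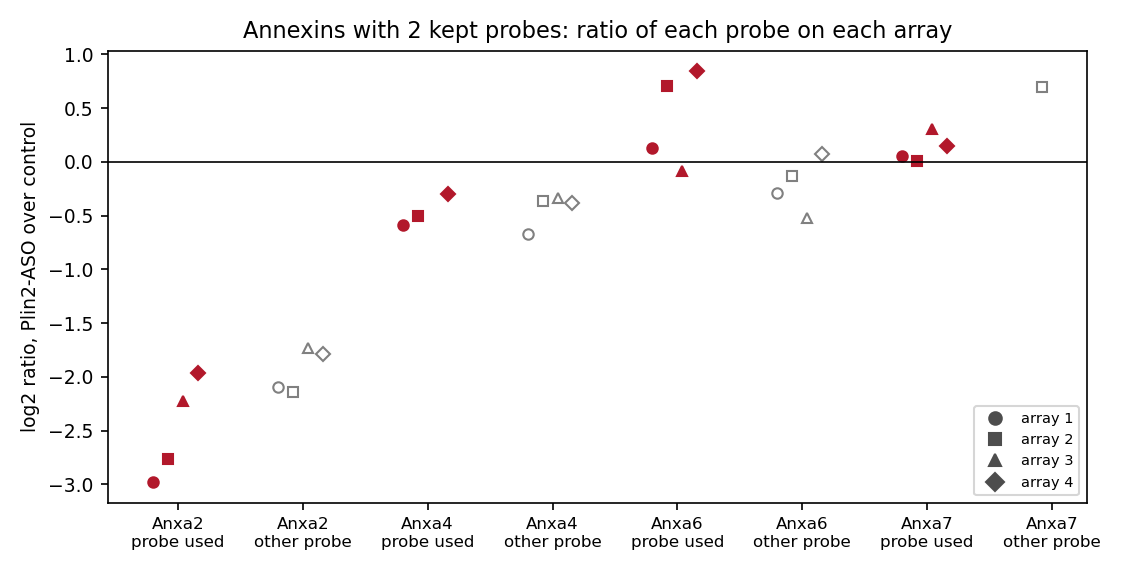
Log2 ratio (Plin2-ASO over control, vertical axis) of each kept probe of the 4 annexins that have 2 of them; filled red symbols are the probe used, open grey symbols the other probe, and the shape gives the array. The probes of Anxa2 lie below -1.7 and those of Anxa4 below -0.3, those of Anxa6 lie on both sides of 0 (the other probe is near background), and the other probe of Anxa7 has 1 value, on array 2.

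The members were set against each other by the root mean square difference of their log2 ratios over the arrays. This measure counts a gap between mean ratios as well as a different course over the arrays. Anxa1 and Anxa3 lay 0.39 apart, with the array 3 value near 0 in both. Anxa2 and Anxa6 were the farthest apart of the pairs, at 2.92. On array 3 Anxa2 and Anxa5 read -2.22 and -1.31. Anxa7 and Anxa11 were the nearest pair, at 0.26. By the same measure and among 12581 named genes measured on all arrays, the 5 genes nearest to Anxa2 were Bex4, Mki67, Pkp1, Gpnmb and Capg, at 0.23, 0.26, 0.26, 0.31 and 0.32. Mki67 marks dividing cells, Gpnmb lipid-laden macrophages, and Capg is an actin-capping protein of macrophages. Bex4, the nearest, and Pkp1 are in none of the cell type marker lists used here. Nearest to Anxa5 were Lacc1, Mpp1, Unc119, Vat1 and Eln, at 0.10 to 0.16. These distances are descriptions over 4 arrays and carry no test.

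Markers of several cell types moved with the annexins that fell. With all arrays in the fit 6.07% of all genes fell and 3.67% rose, beside which the counts of markers stand. All 7 markers of lipid-associated macrophages fell (median log2 ratio -2.28), and their summed linear signal was 11914 to 18381 in the livers labelled Plin2-ASO, against 57377 to 100008 in the control livers. All 7 markers of dividing cells fell (median -1.99), with sums of 3147 to 4059 in the livers labelled Plin2-ASO, against 11144 to 18592 in the control livers; Cdk1 was not well above background in the 4 livers labelled Plin2-ASO. Without array 1, array 2 or array 3, 1.14%, 1.21% and 20.3% of all genes fell, beside which the counts below without those arrays stand. Of 12 stellate cell markers 7 fell (median -1.20), with sums over 11 of them of 50465 to 69174 in the livers labelled Plin2-ASO, against 121346 to 198173 in the control livers; without array 1 or array 2 the number was 3. Of 11 endothelial markers 5 fell (median -0.59; sums of 19015 to 26112 in the livers labelled Plin2-ASO, against 28825 to 41379 in the control livers); by limma none did without array 1 or array 2, and 10 did without array 3. Of 8 resident macrophage markers 4 rose (Cd163, Clec4f, Vsig4 and Marco) and 2 fell (C1qb and Cd5l), with a median of 0.80; by limma none fell without array 1 or array 2. Their summed signal, 37173 to 60639 in the livers labelled Plin2-ASO, against 66130 to 119296 in the control livers, covers 6 markers: it leaves out Clec4f (log2 ratio 2.37) and Marco (2.48), each missing on 1 array, and its brightest member is Cd5l. Of 8 bile duct markers 3 fell (median 0.04; sums over 6 of them of 9027 to 14857 in the livers labelled Plin2-ASO, against 24641 to 44877 in the control livers), and 1 without array 1 or array 2. Of 5 neutrophil markers 1 fell, of 8 lymphocyte markers 1 fell, and of 6 adipocyte markers 1 rose; each of these calls ended without array 2. The median ratio of the adipocyte markers was 1.83 on array 3, the array on which Anxa1 and Anxa3 read near 0, and 0.04, -0.21 and -0.18 on arrays 1, 2 and 4. On array 3 Cfd read 6.45, Adipoq 4.10, Plin1 1.96 and Fabp4 1.69, while Cidec read 0.04 and Lep -0.13. Of the 8 hepatocyte markers Alb fell, and the list median was -0.28. At an unadjusted p under 0.05 by limma, 4 of these markers were lower, Alb among them, and 1 higher (15.7% and 11.3% of all genes). Their sum over 7 markers was 423435 to 555317 in the livers labelled Plin2-ASO, against 721537 to 820473 in the control livers, so these did not overlap either. The part of any of these in the annexin ratios was not tested.

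Among the S100 partners, S100a11 showed the lowest mean ratio. S100a11, which binds the tail of Anxa1, read 10.02, 9.90, 10.08 and 10.40 in livers 6, 7, 9 and 10 labelled Plin2-ASO, against 12.59, 12.94, 12.33 and 11.82 in control livers 1, 2, 4 and 5. It fell by 2.32 ± 0.25 on the log2 scale (SE, n = 4; 4.99-fold lower; adjusted p = 0.00365 by limma). S100a10, the partner of Anxa2, had a mean log2 ratio of -0.62 ± 0.19 (SE, n = 4; adjusted p = 0.0878 by limma), on arrays 1 to 4 -1.18, -0.75, -0.08 and -0.49, so its groups overlapped while those of Anxa2 lay far apart. S100a6, the partner of Anxa11, read -2.01, -2.61, 0.83 and -1.06 on arrays 1 to 4 (adjusted p = 0.175). Of 4 S100 partners tested 1 fell and 0 rose, where 6.07% of all genes fell and 3.67% rose. At an unadjusted p under 0.05 by limma, 3 were lower and 0 higher (15.7% and 11.3% of all genes). Without array 3 the number that fell was 3, where 20.3% of all genes fell.

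Of 12 membrane repair and scaffold genes 1 fell and 1 rose, where 6.07% of all genes fell and 3.67% rose. At an unadjusted p under 0.05 by limma, 3 were lower and 2 higher (15.7% and 11.3% of all genes). Myof (myoferlin, which helps to reseal the plasma membrane) fell by 1.54 ± 0.25 (SE, n = 4; 2.92-fold lower; adjusted p = 0.0122 by limma). Ahnak, a giant scaffold that binds Anxa2 with S100a10, was 1.73-fold higher (adjusted p = 0.0151). Ahnak read 13.33, 13.33, 12.93 and 13.30 in livers 6, 7, 9 and 10 labelled Plin2-ASO, against 12.51, 12.35, 12.41 and 12.47 in control livers 1, 2, 4 and 5, so it separated the groups in the direction opposite to Anxa2. Both calls ended without array 1 (adjusted p = 0.0778 for Myof and 0.12 for Ahnak), and that of Ahnak also without array 2 or array 4 (0.117 and 0.0523). Of 5 genes that form plasmin at the cell surface, none passed by limma. Plat, the tissue plasminogen activator that Anxa2 binds, had a mean log2 ratio of -0.79 (adjusted p = 0.0574 by limma). For Plaur, the urokinase receptor, the mean was -0.48 (adjusted p = 0.153). These 2 were lower at an unadjusted p under 0.05, as were 15.7% of all genes.

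The 6 genes tested for Anxa1 signalling and lipid mediators were Fpr1, Alox5ap, Alox5, Pla2g4a, the glucocorticoid receptor Nr3c1 and the glucocorticoid-induced Tsc22d3. Of these, Alox5ap, which hands arachidonic acid to 5-lipoxygenase, fell by 1.60 ± 0.19 (SE, n = 4; 3.03-fold lower; adjusted p = 0.00478 by limma). Fpr1, a formyl peptide receptor, was 1.66-fold higher (adjusted p = 0.0461), with log2 ratios of 0.15, 0.79, 0.92 and 1.08 on arrays 1 to 4; this call ended without array 1, 2 or 4 (adjusted p = 0.0675, 0.204 and 0.147). Of 8 genes that bridge or recognise phosphatidylserine, the lipid that Anxa5 binds, 3 fell and 0 rose by limma, where 6.07% of all genes fell and 3.67% rose. At an unadjusted p under 0.05 by limma, 4 were lower and 0 higher (15.7% and 11.3% of all genes). The 3 that fell were the bridging protein Gas6 (2.85-fold lower on 3 arrays, adjusted p = 0.00589), the inhibitory receptor Cd300a (1.75-fold, adjusted p = 0.031) and the bridging protein Mfge8 (1.85-fold, adjusted p = 0.0412). Without array 1 the number that fell was 1, and without array 2 it was 0, where 1.14% and 1.21% of all genes fell.

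Of the 4 further annexins with probes on the array, Anxa9 and Anxa13 fell and Anxa8 and Anxa10 did not pass. Over all genes tested 6.07% fell and 3.67% rose. Anxa13, an intestinal and epithelial annexin, read 8.74, 8.33, 8.38 and 8.41 in livers 6, 7, 9 and 10 labelled Plin2-ASO, against 9.04, 9.02, 8.94 and 9.08 in control livers 1, 2, 4 and 5 (1.47-fold lower; adjusted p = 0.0449 by limma). A second, dimmer Anxa13 probe that was not used read -0.90, -1.38, -0.77 and -1.55 on arrays 1 to 4, a larger difference with a mean of -1.15. Anxa9 was 1.61-fold lower (adjusted p = 0.0367). Neither passed without array 1, 2 or 4, with adjusted p of 0.102 to 0.246. Anxa8, printed as 10 spots on each array, had ratios of -0.17, 0.10, 0.04 and 0.75 on arrays 1 to 4 (adjusted p = 0.555), and Anxa10 had a mean of 0.23 over 3 arrays (adjusted p = 0.446).

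**Figure D4:**
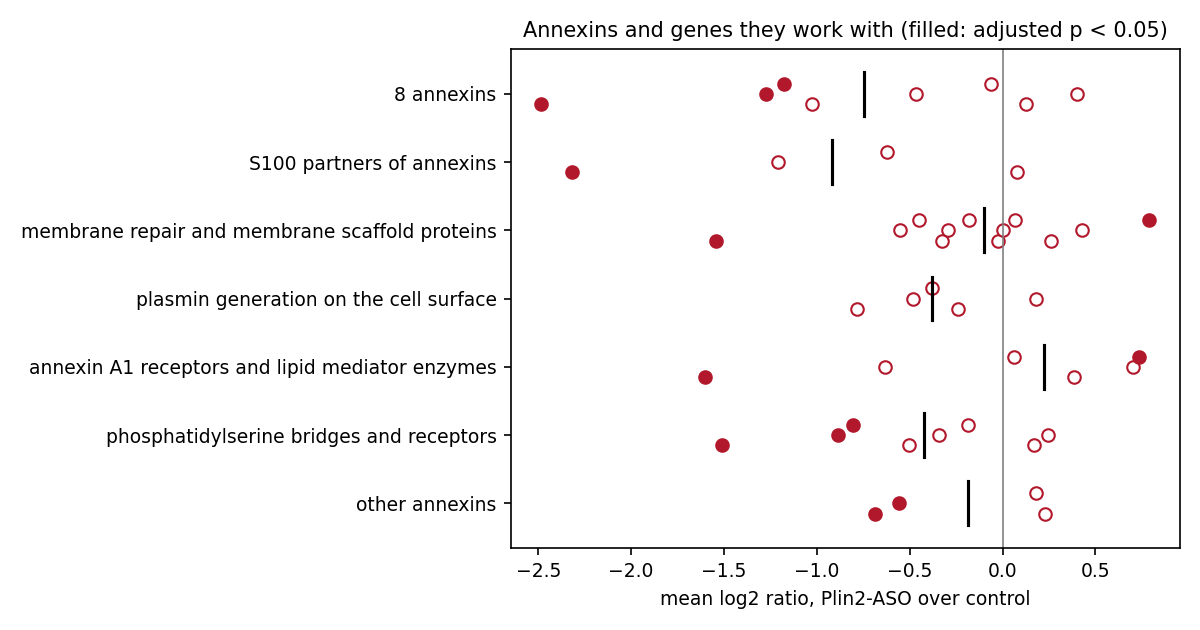
Mean log2 ratio (Plin2-ASO over control, horizontal axis) of the 8 annexins and of the genes tested in 6 lists of partners and relatives; each circle is a gene, filled where its adjusted p is under 0.05, and the black bar is the list median. Filled circles lie left of 0 except for Ahnak (0.79) and Fpr1 (0.73).

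The windows before the annotated starts of the 3 genes that fell are printed to show the sequence before their starts, from RefSeq on build GRCm38.p6, 250 bases each, 5′ to 3′ on the strand of the gene. Promoter windows were matched for 6 of the 8 annexins. Both strands were searched. Capitals mark the motif TATAAA, the motif TGANTCA (N is any base) and the motif GGAATG, which reads CATTCC on the other strand.
Anxa2, chr9:69453433-69453682, plus strand: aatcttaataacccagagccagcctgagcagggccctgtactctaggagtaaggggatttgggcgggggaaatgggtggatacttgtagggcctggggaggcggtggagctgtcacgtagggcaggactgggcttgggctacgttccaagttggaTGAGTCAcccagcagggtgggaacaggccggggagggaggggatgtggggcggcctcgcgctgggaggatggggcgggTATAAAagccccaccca
Anxa1, chr19:20390672-20390921, minus strand: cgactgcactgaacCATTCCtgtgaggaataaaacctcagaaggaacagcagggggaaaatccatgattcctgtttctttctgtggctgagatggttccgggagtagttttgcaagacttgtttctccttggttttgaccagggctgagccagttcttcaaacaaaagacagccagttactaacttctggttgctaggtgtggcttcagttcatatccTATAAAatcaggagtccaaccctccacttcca
Anxa5, chr3:36475888-36476137, minus strand: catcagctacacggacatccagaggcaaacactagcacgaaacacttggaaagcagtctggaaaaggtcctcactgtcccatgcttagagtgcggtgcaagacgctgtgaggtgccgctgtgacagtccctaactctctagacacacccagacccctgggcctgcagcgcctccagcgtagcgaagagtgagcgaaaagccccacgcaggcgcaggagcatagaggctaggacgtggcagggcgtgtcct
TATAAA, the letters of a TATA box, began 17 bases before the start of Anxa2 and 32 before that of Anxa1, and is in 12.4% of 32851 such windows. TGANTCA, the letters of an AP-1 site, was in the Anxa2 window, 95 bases before the start, and is in 6.75% of windows. GGAATG, the letters of a TEAD site, was in the Anxa1 window and is in 12.6% of windows. GGGCGG, the letters of a GC box, occurred 3 times in the Anxa2 window and not in those of Anxa1 and Anxa5, and is in 32.7% of windows. It also occurred 3 times in the Anxa11 window and 1 and 4 times in the 2 windows of Anxa7, members that did not fall, and not in the 2 windows of Anxa4. The Anxa5 window held none of the 4 motifs. These matches describe letters in these windows, and nothing about a factor was measured.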

How the data were processed

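Liver RNA was hybridised to 4 Agilent 2-colour arrays. Per the file headers, spots were extracted with Feature Extraction 9.5.1.1; the intensities used are the deposited mean signal and median local background per spot, neither subtracted nor dye-normalized. Deposited log10 ratios (red over green, per the file headers) and the authors' deposited series table of log2 ratios served as alternatives, sign turned; for probes with 1 spot the table equalled the log10 ratio converted to log2, and for others the mean over spots.

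Normexp (offset 50) was used on the background and loess on the ratios, with control spots at weight 0 (limma 3.58.1, R 4.3.3). Spots marked as outliers were dropped before averaging over a probe's spots. A probe was kept when well above background on at least 3 arrays in 1 channel (27160 of 41174), and each gene took the brightest of its kept probes that had values on at least 3 arrays. The mean ratio was tested against 0 with lmFit and eBayes (two-sided, 7.21 total degrees of freedom), adjusted with Benjamini-Hochberg over 18041 genes at 0.05; 1757 genes passed, 662 higher and 1095 lower. SEs are moderated and intervals are at 95%. Levels per liver are loess ratios and Aquantile-scaled averages split into channels. Levels of different probes are not compared. The fit was tested on simulated data. Genes were named by accession or symbol through RefSeq tables of GRCm38.p6 (names only); 8437 probes kept the name in the file. The p-values measure the spread between 4 pairs of mice, whose number limits precision.

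The members, gene lists and the rule for named genes (all 8 annexins; of each partner list the 2 members with the smallest p and those that passed; the other annexins; and the 5 genes nearest to the 2 annexins with the smallest p) were chosen with earlier results of these data known. S100a6 and the markers singled out from the cell type lists, Alb and Cdk1 among them, were named after their values were seen. Alternatives varied background correction, normalization, filter, probe choice, outliers, model, threshold and arrays.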

Additional observations from a re-analysis of the deposited data

Results flagged for a closer look

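Over 21 sets of 4 values (log2 ratios by array, and levels in each group, of the 7 annexins measured on all arrays), 1 had a value far from the others by Dixon's criterion: the Anxa3 log2 ratio on array 3, at 0.0565, was apart from -1.46 to -1.33 on the other arrays, with a gap of 0.92 of the range. Chance flags about 1 in 20 such sets.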

How the results depend on the processing

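Of the 8 annexins 2 to 4 were called in the other alternatives, but 6 with array quality weights (5 fell and 1 rose), which gave array 3 a weight of 0.215 against 0.838 to 2.85; leaving out each array in turn gave 1 to 6. The number of genes changed was 1757, but 931 with trend and robust eBayes, 7045 with array weights and 2999 at an adjusted p under 0.1; it was 351 to 5906 with each array left out. The separate channels without a replicate block gave 4 annexins and 1820 genes; the array is the pair, so the main fit already pairs the mice. Of the mean log2 ratios of the annexins, that of Anxa11 changed sign with median centring (0.01247) and without array 4 (-0.1902 to 0.02306 over the arrays left out in turn), and no other did. Anxa1 lost its call in 7 of 19 alternatives and Anxa5 in 1, Anxa3 gained one in 7 of 19, Anxa4 in 2 of 18 and Anxa6 in 2 of 19, Anxa2 kept its call, and Anxa7 and Anxa11 gained none. Anxa4 gave no value with the intraspot correlation, which needs all arrays. The cause of these changes was not tested. No spot was saturated.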
